A study of Rattus norvegicus with 27 samples.

Results

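The genes of collagens, laminins and integrins were followed through the differentiation of rat oligodendrocyte progenitor cells (OPCs) with and without IFNγ. The members were taken by symbol. They are the collagen alpha chains, the laminin alpha, beta and gamma chains, and every gene whose symbol begins with Itga or Itgb. By this rule 77 of the 14218 genes with a probe set of their own were members, namely 41 collagen, 10 laminin and 26 Itga or Itgb genes, of which 4 encode proteins that are not integrin subunits. A gene was counted as detected where its mean reached 5.99, the median of all array values on the log2 scale, in at least 1 group. This held for 32 members (15 collagen, 5 laminin and 12 Itga or Itgb genes) and for 71.3% of all genes. The other 45 members stayed under the limit in all 9 groups. They enter the counts and medians over the 77 members, but no call of a single one of them is described.

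The samples were 27 Affymetrix arrays of total RNA from cultured OPCs of 3 donors, which the study isolated from the cerebral cortex of rat pups with magnetic beads against the surface ganglioside A2B5 and expanded in PDGF, a growth factor that keeps them dividing, beside the BMP antagonist noggin. In T3+IFNγ cultures PDGF was withdrawn and the thyroid hormone T3, which starts differentiation, was given together with the cytokine IFNγ for 8, 24, 48 or 96 h. In T3 cultures PDGF was withdrawn and T3 was given alone for the same times. PDGF cultures were kept in PDGF and taken at 0 h. Each of the 9 groups held 1 array per donor, and the labels do not say whether a donor was 1 animal or a pool. T3+IFNγ and T3 cultures of a time differed in IFNγ, whereas T3 and PDGF cultures differed in T3, in PDGF and in time together, and these cannot be told apart. All T3 comparisons with PDGF share the 3 PDGF arrays, and each T3 group serves both comparisons. The number of arrays limits the precision.

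Collagens are triple helices of alpha chains, and laminins are trimers of an alpha, a beta and a gamma chain; with type IV collagen they form the sheets of the basement membrane. Integrins are pairs of an alpha and a beta subunit that hold the cell to this matrix and signal from it. In oligodendrocytes the laminin receptor alpha 6 beta 1 and the alpha v integrins are known for roles in survival, migration and the growth of processes, and laminin alpha 2 is known for its part in myelination.

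Markers of the labelled cell type were present, beside those of other cell types. All 6 measured OPC markers and all 7 measured markers of mature oligodendrocytes were detected, and the summed level of the mature set lay between 15.7 and 15.9 in T3+IFNγ at 96 h, between 16.2 and 16.3 in T3 at 96 h and between 11.5 and 11.6 in PDGF (log2 of the sum). Of 15 microglial markers 13 were detected. Of 8 astrocyte markers 6 were detected, among them Gfap with group means of 9.15 to 11.23, and of 10 neuronal markers 7. The astrocyte sum was 12.04 to 12.74 in PDGF and 13.62 to 14.05 in T3 at 96 h. In T3+IFNγ at 96 h it was 13.57 to 13.93. In T3 at 96 h against PDGF 5 of the 8 were called higher (62.5%, beside 23.4% of all genes) and none lower. Of the 10 neuronal markers 1 was higher and 4 were lower. The part of astrocytes and neurons in the results was not tested. Of 16 markers of vascular cells and fibroblasts, which make much of the collagen and laminin of other tissues, 4 were detected. Beside Mgp these were Tagln, Acta2 and Pdgfrb, with group means of 7.55 to 9.23, 6.30 to 7.16 and 5.7 to 6.1. The defining genes Pecam1 (endothelium) and Dcn (fibroblasts) stayed between 3.31 and 3.95 and between 3.88 and 4.48 on all arrays. The summed level of the 16 markers lay between 13.2 and 13.8 in T3+IFNγ at 24 h, against at most 10.3 in T3. The T3+IFNγ level was that of 1 gene, the matrix protein Mgp, with a mean of 13.30 in T3+IFNγ and 6.61 in T3 (change 6.69, limma adjusted p = 2.6e-10). It was the only 1 of the 16 called at 24 h, and their median change was −0.01. The sums at 96 h were 11.96 to 12.47 in T3+IFNγ, 9.45 to 9.72 in T3 and 9.17 to 9.65 in PDGF. The part of such cells in the results with IFNγ was not tested. The 3' to 5' ratio of the beta-actin control was 1.34 and 1.47 (log2) in the T3+IFNγ arrays of donor 2 at 8 and 24 h, against 0.76 to 1.16 in the other 25 arrays. Results that turned on those arrays are given without them as well.

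Calls among the 77 members were counted in each comparison (limma over all genes, Benjamini-Hochberg adjusted p under 0.05). In T3 at 8 h against PDGF 8 members passed (10.4%, beside 12.7% of all genes), 3 higher and 5 lower (beside 7.31% and 5.37% of all genes). At 24 h 22 passed (28.6%, beside 34.9%), 10 higher and 12 lower (beside 17.1% and 17.8%). At 48 h 21 passed (27.3%, beside 43.1%), 9 higher and 12 lower (beside 17.5% and 25.7%). By 96 h the count was 31 (40.3%, beside 52.9%), 11 higher and 20 lower (beside 23.4% and 29.5%). Counting the 32 detected members alone, T3 gave 2 higher calls (8 h), 9 (24 h), 7 (48 h) and 8 (96 h), beside 3, 9, 10 and 14 lower calls. In T3+IFNγ against T3, 7 members passed at 8 h (9.09%, beside 5.26% of all genes), 3 higher and 4 lower (beside 3.69% and 1.58%). At 24 h 13 passed (16.9%, beside 12.3%), 5 higher and 8 lower (beside 5.96% and 6.35%), or 3 and 8 with arrays centred on their medians. At 48 h 10 passed (13.0%, beside 16.1%), 3 higher and 7 lower (beside 7.57% and 8.53%). At 96 h 9 passed (11.7%, beside 13.5%), 4 higher and 5 lower (beside 7.91% and 5.63%). Counting detected members alone, IFNγ gave 3 higher calls (8 h), 2 (24 h), 2 (48 h) and 3 (96 h), beside 3, 8, 5 and 4 lower calls, so that at 24 h 3 of the 5 higher calls were of undetected members. The shares of the 77 with IFNγ lay on both sides of the background, and those with T3 below it. These shares include the 45 undetected members, whereas 71.3% of all genes were detected. Of the 32 detected members 15.6%, 56.2%, 53.1% and 68.8% were called with T3 at 8, 24, 48 and 96 h. With IFNγ the shares of the 32 were 18.8%, 31.2%, 21.9% and 21.9%. Shares of all detected genes are given here only over the 4 times together, so these shares at single times have no like background beside them. The median change of the 77 members was 0.04 in T3 at 96 h and −0.08 with IFNγ at 96 h, against 0.01 and −0.02 over all genes.

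Of the 32 detected members, 26 passed in T3 against PDGF at 1 or more times (81.2%, beside 79.8% of all detected genes) and 13 with IFNγ at 1 or more times (40.6%, beside 34.8%). Col12a1, Col15a1, Itgad, Itgal and Lamc3 passed at no single time in either. With donors as blocks Col12a1 was called in T3 at 24 h (0.63, adjusted p = 0.00287) and Itgal in T3 at 24 and 48 h (−0.74 and −0.82, adjusted p = 0.0486 and 0.0234). Counts were sensitive to single donors: without donor 2 the T3 counts at 8 and 24 h were 1 and 14 members, and the IFNγ counts were 2, 2, 5 and 5 at 8, 24, 48 and 96 h. Without donor 3 the T3 count at 8 h was 2, and the IFNγ counts were 3, 6, 5 and 4. Without the 2 donor 2 arrays of T3+IFNγ named above the IFNγ counts were 3 at 8 h and 7 at 24 h. Of the 22 detected members called in T3 at 96 h, 15 passed without each donor in turn, as did Col11a1 and Col16a1 with IFNγ at 8 h, Col16a1 and Itgae at 24 h, Col11a1, Col11a2 and Col16a1 at 48 h, and Col16a1 and Lama4 at 96 h.

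**Figure D1:**
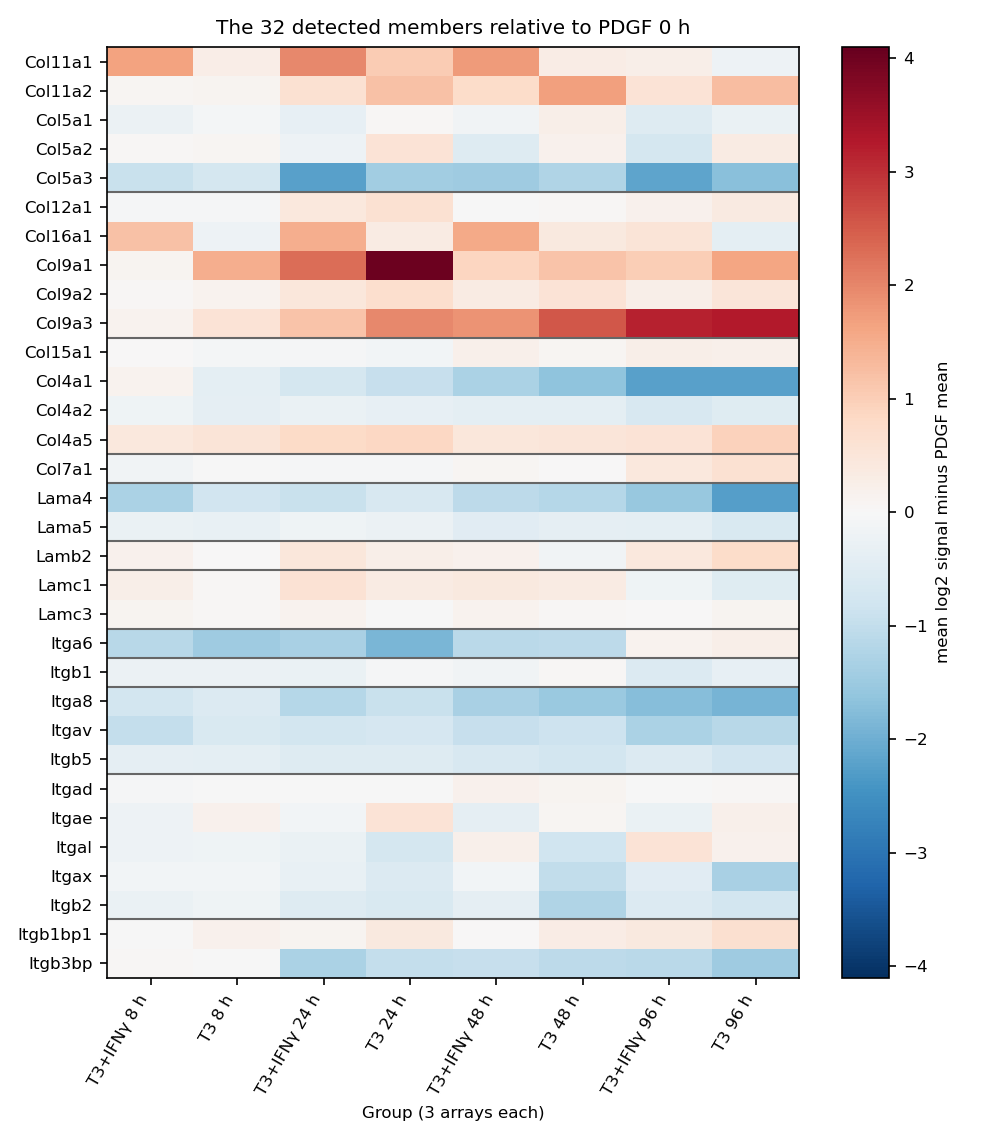
Mean log2 signal of each detected member in the 8 T3+IFNγ and T3 groups minus its PDGF mean, with 3 arrays in each group and members ordered by role (lines part fibrillar collagens, fibril-associated collagens, basement membrane collagens, Col7a1, laminin alpha, beta and gamma chains, Itga6, Itgb1, RGD-binding subunits, leukocyte subunits and proteins that are not subunits). The highest value is that of Col9a1 in T3 at 24 h, at 4.03, and in T3 at 96 h Col9a3 is red at 3.25 and Col4a1 and Lama4 are blue at −2.23 and −2.26.

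Type IX collagen, a heterotrimer of the Col9a1, Col9a2 and Col9a3 chains that sits on the surface of fibrils in cartilage, was higher with T3 in all 3 of its chains, on different courses. Col9a3 had 10.59, 10.15 and 10.41 in T3 at 96 h, against 7.16, 7.03 and 7.21 in PDGF (donors 1, 2 and 3). Every T3 array at 96 h lay far above every PDGF array. The change was 0.57, 1.96, 2.53 and 3.25 at 8, 24, 48 and 96 h, the last with a standard error of 0.17, a 9.50-fold rise (limma adjusted p = 3.21e-13). Only the 8 h call was lost without donor 1 (adjusted p = 0.108) or donor 2 (adjusted p = 0.25).

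Col9a1 peaked at 24 h. It had 6.83, 5.50 and 4.90 in T3 at 8 h, then 8.28, 8.04 and 8.55 at 24 h, then 5.29, 5.53 and 5.52 at 48 h, and lastly 5.62, 5.86 and 6.18 at 96 h, after 4.67, 4.19 and 3.94 in PDGF. The 24 h arrays stood above all others. The group means in PDGF and in T3 at 8, 48 and 96 h were under the detection limit, so only the 24 h change involves a detected level. The T3 change was 1.48 ± 0.34, 4.03 ± 0.34, 1.18 ± 0.34 and 1.62 ± 0.34 (standard error, limma adjusted p = 4.75e-09 at 24 h), and the calls at 8 and 48 h did not hold without donor 2 (adjusted p = 0.152 and 0.148). Col9a2 rose less, by 0.70, 0.57 and 0.50 at 24, 48 and 96 h (adjusted p = 4.15e-05, 0.00028 and 0.00072), and these calls held without each donor.

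Col9a1 and Col9a3 were lower with IFNγ at 24 h. Col9a1 had 6.85, 6.61 and 6.17 in T3+IFNγ at 24 h, against 8.28, 8.04 and 8.55 in T3, and the groups did not overlap (change −1.75 ± 0.34, adjusted p = 0.00109). At 8 h it had 5.02, 4.41 and 3.72 in T3+IFNγ and 6.83, 5.50 and 4.90 in T3, which overlap across donors although each donor fell, and both means were under the limit (change −1.37, adjusted p = 0.0163). Without donor 2 both calls were lost (adjusted p = 0.337 at 8 h and 0.0734 at 24 h), and without the 2 donor 2 arrays the 8 h call was lost (adjusted p = 0.0622). At 48 and 96 h, with T3 means again under the limit, the change was −0.29 and −0.62, not called.

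Col9a3 fell with IFNγ at 24 h (8.41, 8.43 and 8.11 in T3+IFNγ, against 9.27, 9.05 and 8.98 in T3) and at 48 h, by 0.78 and 0.69 (adjusted p = 0.00234 and 0.00529). At 96 h its values of 10.19, 10.28 and 10.44 in T3+IFNγ overlapped the 10.59, 10.15 and 10.41 in T3 (change −0.08). Without donor 2 neither call held (adjusted p = 0.0599 and 0.122). Averaged over the 4 times, of which only 24 h had Col9a1 over the limit, Col9a1 fell by 1.01, Col9a3 by 0.495 and Col9a2 by 0.21 (adjusted p = 8.19e-05, 6.89e-05 and 0.00757). On this average 21 of 77 members passed (27.3%, beside 31.2% of all genes), 7 higher and 14 lower (beside 12.7% and 18.5%). The Col9a2 call was lost without donor 1 (adjusted p = 0.0663) or donor 2 (adjusted p = 0.0647), and the count of 21 became 12 without donor 2.

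Type XI collagen forms thin fibrils from the Col11a1, Col11a2 and Col2a1 chains, and here its first and second chains moved in opposite directions with IFNγ. Col11a1 had 10.46, 10.10 and 9.93 in T3+IFNγ at 8 h, against 9.15, 8.64 and 8.61 in T3. At 24 h it had 10.38, 10.74 and 10.34 in T3+IFNγ and 9.39, 9.68 and 9.60 in T3, and at 48 h 9.95, 10.59 and 10.29 in T3+IFNγ and 8.49, 8.94 and 9.06 in T3. The groups did not overlap at any of these times. The rise was 1.36, 0.93 and 1.45, each ± 0.18 (adjusted p = 1.36e-05, 0.00112 and 3.79e-06), and at 96 h the change was 0.44, not called. The 24 h call was lost without donor 2 (adjusted p = 0.067). A second detected probe set of Col11a1 differed by 1.40, 1.38, 2.10 and 1.01 at the 4 times. In T3 alone Col11a1 rose by 1.03 at 24 h against PDGF (adjusted p = 8.96e-05), and at 8, 48 and 96 h its changes of 0.28, 0.31 and −0.21 were not called.

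Col11a2 rose with T3 and reached less of that level with IFNγ. It had 7.25, 7.67 and 7.48 in T3 at 24 h, 8.36, 7.89 and 7.56 at 48 h, and lastly 7.71, 7.54 and 7.33 at 96 h, after 6.44, 6.09 and 6.24 in PDGF. The T3 change was 1.21, 1.68 and 1.27 at these times (adjusted p = 1.65e-06, 1.03e-08 and 2.76e-07), with no overlap. At 48 h Col11a2 had 7.07, 7.09 and 6.86 in T3+IFNγ, all under the T3 arrays, a fall of 0.93 ± 0.16 (adjusted p = 0.000145). It also fell by 0.59 at 24 h and 0.70 at 96 h (adjusted p = 0.0124 and 0.00287), calls that were lost without donor 2 (adjusted p = 0.227 and 0.107) and at 24 h also without donor 3 (adjusted p = 0.13). The Col2a1 chain was not detected, with a highest group mean of 5.36.

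Col16a1, a collagen that is not itself fibrillar but lies along fibrils and binds integrins, was with Itgae 1 of the 2 detected members called with IFNγ at every time. It had 9.69, 9.52 and 9.03 in T3+IFNγ at 8 h, against 8.23, 8.03 and 7.80 in T3. At 24 h it had 9.71, 9.89 and 9.51 in T3+IFNγ, against 8.54, 8.65 and 8.54 in T3. At 48 h it had 9.67, 9.82 and 9.87 in T3+IFNγ, against 8.52, 8.68 and 8.72 in T3, and at 96 h 8.89, 8.65 and 8.73 in T3+IFNγ, against 7.82, 8.12 and 7.51 in T3. At each time the lowest T3+IFNγ array was above the highest T3 array. The rise was 1.39, 1.13, 1.15 and 0.94, each ± 0.16, at 8, 24, 48 and 96 h (adjusted p = 7.86e-07, 1.48e-05, 9.48e-06 and 0.000122), and all 4 calls held without each donor. In T3 against PDGF the change was small, 0.41 at 48 h and −0.41 at 96 h (adjusted p = 0.0344 and 0.0297), and both calls were lost whichever donor was left out, with adjusted p between 0.0693 and 0.106.

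**Figure D2:**
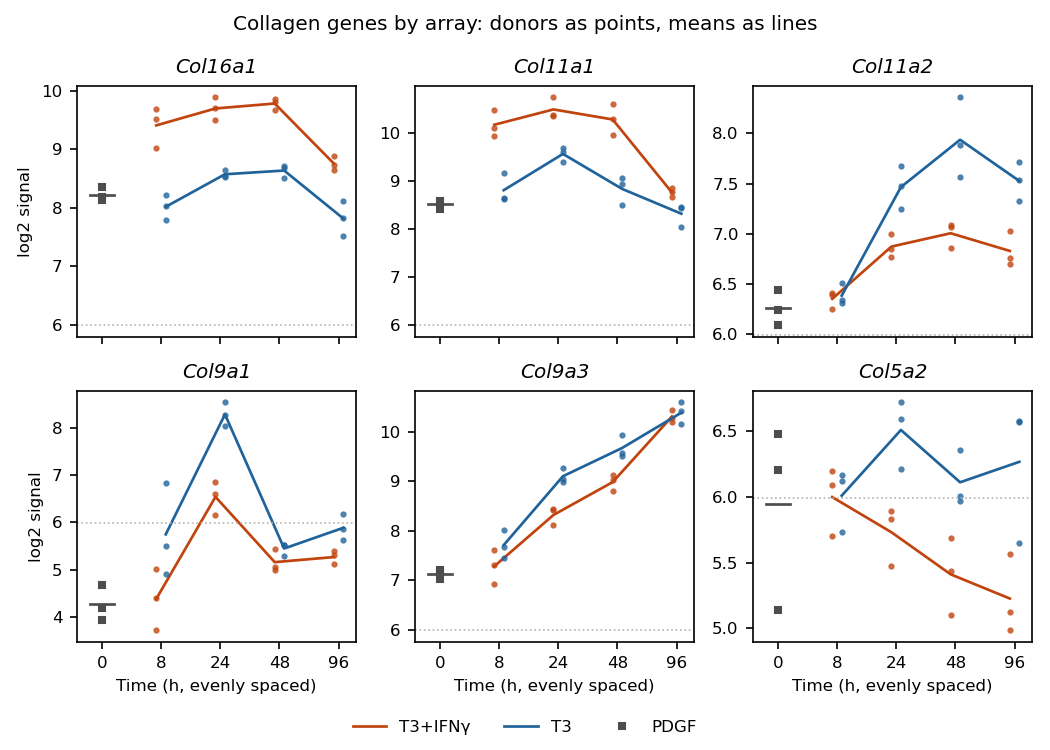
Log2 signal of 6 collagen genes by array at 0, 8, 24, 48 and 96 h in T3+IFNγ (red, left of each pair), T3 (blue) and PDGF (grey squares), with the 3 donors as points, group means as lines and the detection limit of 5.99 dotted. Col16a1 and Col11a1 lie higher in T3+IFNγ than in T3 at 8, 24 and 48 h on every array, and Col11a2 lies lower at 24, 48 and 96 h.

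The 250 bases before the RefSeq start (assembly GRCr8) are printed for Col16a1 and Col11a1, which rose with IFNγ, and for Col11a2 and Col9a1, which fell. Capitals mark GGGCGG (a GC box, in 30.5% of all 33469 windows of this length and in 31 of the 60 members with a window) and CCAAT (34.0% of all windows and 15 of the 60), searched on either strand and chosen after the values had been seen. A match is a description of the letters and not a site of binding. The GC boxes number 2 before Col16a1, 3 before Col11a1 (with 2 CCAAT boxes) and 3 before Col11a2, of which a pair overlap, and the Col9a1 window holds none of these letters. The windows are chr5:147672846-147673095 (plus strand) for Col16a1, chr2:204508886-204509135 (plus strand) for Col11a1, chr20:4817649-4817898 (minus strand) for Col11a2 and chr9:34081114-34081363 (plus strand) for Col9a1, each 5′ to 3′ along its gene.
Col16a1: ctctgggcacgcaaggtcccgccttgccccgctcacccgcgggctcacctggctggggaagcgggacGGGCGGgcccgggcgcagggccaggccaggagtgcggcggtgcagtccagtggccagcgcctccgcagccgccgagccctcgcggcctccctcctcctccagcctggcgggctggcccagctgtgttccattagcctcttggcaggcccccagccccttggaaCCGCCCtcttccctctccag
Col11a1: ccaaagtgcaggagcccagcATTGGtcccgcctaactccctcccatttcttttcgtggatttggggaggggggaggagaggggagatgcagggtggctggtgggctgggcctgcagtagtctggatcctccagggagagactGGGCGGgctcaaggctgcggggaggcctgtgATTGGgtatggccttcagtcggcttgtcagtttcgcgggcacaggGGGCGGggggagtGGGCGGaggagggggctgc
Col11a2: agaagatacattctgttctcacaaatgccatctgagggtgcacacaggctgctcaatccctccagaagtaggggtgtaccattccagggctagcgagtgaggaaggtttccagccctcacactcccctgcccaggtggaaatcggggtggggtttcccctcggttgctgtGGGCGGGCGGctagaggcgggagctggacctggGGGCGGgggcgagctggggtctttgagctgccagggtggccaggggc
Col9a1: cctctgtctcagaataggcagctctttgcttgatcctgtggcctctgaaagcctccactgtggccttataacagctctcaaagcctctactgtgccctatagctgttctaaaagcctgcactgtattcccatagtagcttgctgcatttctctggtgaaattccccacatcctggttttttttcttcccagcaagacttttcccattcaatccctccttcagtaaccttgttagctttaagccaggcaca

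Type V collagen, which regulates the width of type I fibrils, behaved differently in its 3 chains. Col5a3 fell with T3, with 5.16, 5.98 and 6.10 at 96 h, against 7.19, 7.55 and 7.69 in PDGF. The groups did not overlap, the mean at 96 h was under the limit, and the change was −1.41, −1.22 and −1.73 at 24, 48 and 96 h (adjusted p = 0.000175, 0.000596 and 6.49e-06). With IFNγ Col5a3 fell by a further 0.83 at 24 h (adjusted p = 0.0409), from a mean just over the limit in T3 (6.07) to one under it (5.24). This call was lost without donor 2 (adjusted p = 0.238), donor 3 (adjusted p = 0.343) or the 2 donor 2 arrays (adjusted p = 0.0556).

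Col5a2 fell with IFNγ at 96 h, where it had 5.12, 4.98 and 5.57 in T3+IFNγ, against 5.65, 6.58 and 6.57 in T3. All 3 T3+IFNγ arrays were under the detection limit and below every T3 array (change −1.04 ± 0.28, adjusted p = 0.0137). The call was lost without donor 2 (adjusted p = 0.355) or donor 3 (adjusted p = 0.1). With donors as blocks Col5a2 was also called at 24 and 48 h, at −0.78 and −0.70 (adjusted p = 0.00314 and 0.00562). Col5a1 fell with IFNγ by 0.38 at both 24 and 48 h (adjusted p = 0.0225 and 0.0207), neither of which held without donor 3 (adjusted p = 0.113 and 0.32) or donor 1 (adjusted p = 0.0508 and 0.0943), nor at 24 h without donor 2 (adjusted p = 0.281) or its 2 arrays (adjusted p = 0.134). Averaged over the 4 times Col5a1 fell by 0.29 and Col5a2 by 0.63 (adjusted p = 0.000259 and 0.00127). In T3 at 96 h Col5a1 was 0.28 below PDGF (adjusted p = 0.0365), with overlapping groups, and that call was lost without donor 1 (adjusted p = 0.132), donor 2 (adjusted p = 0.364) or with arrays centred on their medians (adjusted p = 0.055). The Col5a1 average held without each donor, and the Col5a2 average was lost without donor 2 (adjusted p = 0.0901).

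Type IV collagen is the network of the basement membrane, and its usual trimer holds Col4a1 and Col4a2 chains. Col4a1 fell steadily with T3. It had 7.87, 7.65 and 7.42 at 8 h, then 7.03, 7.14 and 7.14 at 24 h, then 6.35, 6.56 and 6.27 at 48 h, and lastly 5.87, 5.83 and 5.76 at 96 h, after 7.83, 8.25 and 8.07 in PDGF. From 24 h on every T3 array lay under every PDGF array, and at 96 h all 3 were just under the detection limit. The change was −0.94, −1.65 and −2.23, each ± 0.15, at 24, 48 and 96 h (adjusted p = 2.77e-05, 8.29e-09 and 2.49e-11), a 4.69-fold fall at the end. The second probe set of Col4a1 differed by −3.12 at 96 h.

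Col4a2 also fell, with 5.91, 5.91 and 6.07 in T3 at 96 h, against 6.28, 6.65 and 6.43 in PDGF. Its change was −0.37, −0.33, −0.39 and −0.49 at 8, 24, 48 and 96 h (adjusted p = 0.0298, 0.0209, 0.00538 and 0.000585). The 96 h call held without each donor, whereas the calls at 8, 24 and 48 h were lost without donor 2 (adjusted p = 0.348, 0.147 and 0.106), at 8 h also without donor 1 (adjusted p = 0.084), and at 8 and 24 h also without donor 3 (adjusted p = 0.0911 and 0.121). The Col4a1 and Col4a2 genes lie head to head on chromosome 16, with 76 bases between their RefSeq starts (GRCr8, chr16:84885521-84885596), printed here along the Col4a1 strand to show the shared stretch, with a GC box (its reverse letters) in capitals.
Col4a1-Col4a2: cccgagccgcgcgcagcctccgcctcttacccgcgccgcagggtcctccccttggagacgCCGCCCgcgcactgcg

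With IFNγ, Col4a1 was higher at 8 h, at 8.04, 8.55 and 7.97 in T3+IFNγ and 7.87, 7.65 and 7.42 in T3 (change 0.54, adjusted p = 0.0348). This call rested on donor 2, where the difference was largest: without donor 2 the adjusted p was 0.548, without donor 3 it was 0.34, and without the 2 donor 2 arrays it was 0.282. Col4a2 was not called with IFNγ at any time. Col4a5, a chain of the other type IV networks, was higher in T3 at 24 and 96 h by 0.84 and 0.94 (adjusted p = 0.0414 and 0.0142), where donor 1 was the low array in PDGF (5.81, with 6.95 in both other donors). Without donor 2 or donor 3 these calls were lost (adjusted p = 0.135 and 0.2 at 24 h, 0.0644 and 0.081 at 96 h). With donors as blocks Col4a5 was called at all 4 times in T3, with 0.53 at 8 h and 0.49 at 48 h (adjusted p = 0.00401 and 0.00176), and with IFNγ at 96 h (−0.38, adjusted p = 0.0304). Col7a1, the chain of the anchoring fibrils of skin, rose by 0.63 in T3 at 96 h (adjusted p = 0.000375). It had 6.15, 6.11 and 6.40 in T3 and 5.53, 5.88 and 5.36 in PDGF, where every array was under the limit. It counted as detected only through its 96 h groups.

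Among the laminins, Lama4, the alpha 4 chain best known from the basement membrane of blood vessels, fell furthest. It had 7.99, 8.35 and 8.13 in T3 at 8 h, then 8.31, 8.30 and 8.25 at 24 h, then 7.93, 7.70 and 7.64 at 48 h, and lastly 6.56, 6.77 and 6.70 at 96 h, after 9.05, 8.91 and 8.85 in PDGF. No T3 array overlapped the PDGF arrays at any time. The change was −0.79, −0.65, −1.18 and −2.26, each ± 0.15 (adjusted p = 0.00188, 0.00148, 1.11e-06 and 2.17e-11), and the fall at 96 h was 4.80-fold. The 8 h call was lost without donor 3 (adjusted p = 0.0502).

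The effect of IFNγ on Lama4 turned round between the first and the last time. At 8 h it had 7.53, 7.85 and 7.51 in T3+IFNγ, below the 7.99, 8.35 and 8.13 in T3 (change −0.52 ± 0.15, adjusted p = 0.0435). At 96 h it had 7.28, 7.62 and 7.22 in T3+IFNγ, above the 6.56, 6.77 and 6.70 in T3 (change 0.70 ± 0.15, adjusted p = 0.00224). The groups overlapped at neither time, and all 3 donors moved alike. The test of the difference between the times gave 1.22 ± 0.21 (limma adjusted p = 0.000984), where 2 of 77 members passed (2.6%, beside 4.32% of all genes), 1 higher and 1 lower (beside 2.24% and 2.08%). Without donor 3 this difference had an adjusted p of 0.0591, and the 8 h call was lost without donor 1 (adjusted p = 0.055), donor 2 (adjusted p = 0.186) or donor 3 (adjusted p = 0.436), whereas the 96 h call held. A second, undetected probe set of Lama4 with group means between 3.72 and 3.90 showed no such shift, and averaged with it the gene lost these 3 calls (adjusted p = 0.479 at 8 h, 0.0558 at 96 h and 0.0718 for the difference). The other member with such a difference was Col11a1, whose rise with IFNγ was smaller at 96 h than at 8 h by 0.92 ± 0.26 (adjusted p = 0.0435). That call was lost without donor 2 (adjusted p = 0.395), donor 3 (adjusted p = 0.36), the 2 donor 2 arrays (adjusted p = 0.0632), or with probe sets averaged (adjusted p = 0.369). With both lost, the count was 0 without donor 3 and with averaged probe sets, and with donors as blocks it was 5 members.

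Lamc1, the gamma 1 chain that most laminins share, followed a shallow course, with 9.62, 9.42 and 9.37 in T3 at 24 h and 8.52, 8.76 and 8.66 at 96 h, after 8.90, 9.37 and 9.16 in PDGF. It rose by 0.32 at 24 h and by 0.33 at 48 h (adjusted p = 0.0289 and 0.0208) and fell by 0.50 at 96 h (adjusted p = 0.00068). The rises were lost without donor 1 (adjusted p = 0.492 and 0.264) or donor 3 (adjusted p = 0.111 and 0.108), and the fall held. With IFNγ at 96 h Lamc1 had 9.02, 8.90 and 8.98, above the 3 T3 arrays (change 0.32), which was called with donors as blocks (adjusted p = 0.045) and not otherwise. Averaged over the 4 times Lamc1 rose by 0.21 with IFNγ (adjusted p = 0.00601), a call lost without donor 2 (adjusted p = 0.103) or donor 3 (adjusted p = 0.0671).

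Lamb2, a beta chain of neuromuscular and kidney laminins, rose by 0.76 in T3 at 96 h (adjusted p = 0.026), with 6.51, 6.63 and 6.56 in T3 and 5.10, 6.21 and 6.11 in PDGF, where donor 1 was low and the mean was under the limit. Without donor 1 the change of Lamb2 was 0.44 (adjusted p = 0.0604) and without donor 3 it was 0.91 (adjusted p = 0.0891). Lama5 fell by 0.61 in T3 at 96 h (adjusted p = 0.0209), lost without donor 2 (adjusted p = 0.0687) or donor 3 (adjusted p = 0.11), and with its probe sets averaged the change was −0.19, not called. Neither was called with IFNγ at any time. Lama2 and Lamb1, whose products form the laminin best known in myelination together with gamma 1, were not detected, with highest group means of 4.67 and 3.99.

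**Figure D3:**
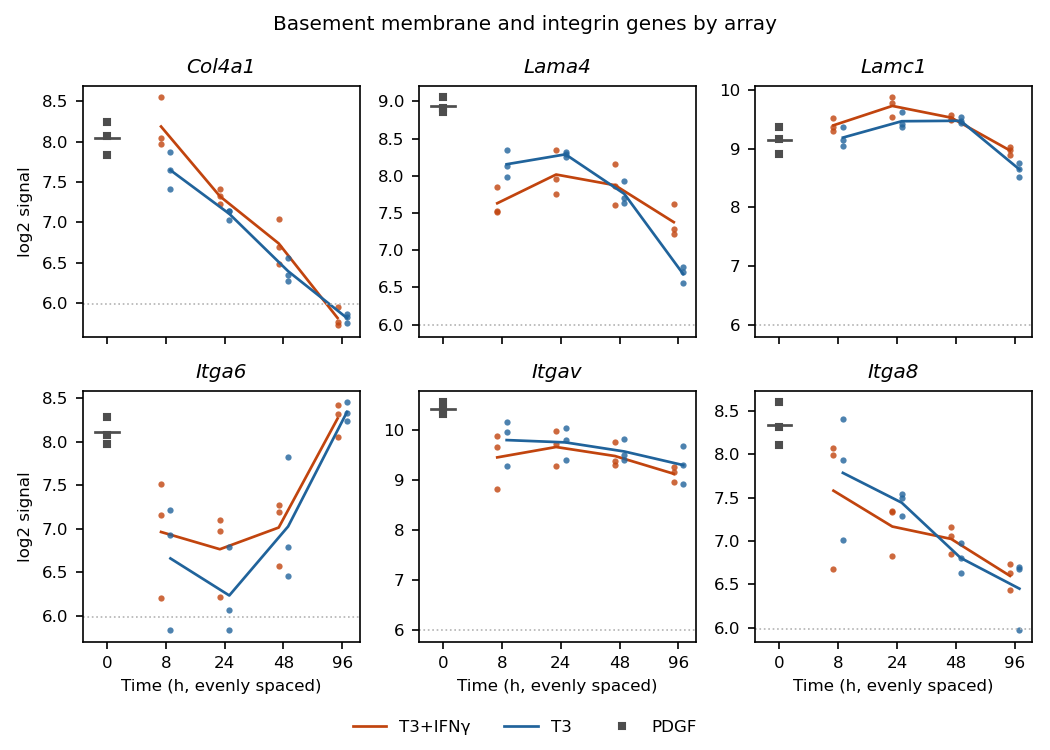
Log2 signal of Col4a1, 2 laminin chains and 3 integrin subunits by array at 0, 8, 24, 48 and 96 h in T3+IFNγ (red, left of each pair), T3 (blue) and PDGF (grey squares), with donors as points, means as lines and the detection limit of 5.99 dotted. Col4a1 and Itga8 fall with time in both cultures, Itga6 dips and returns, and Lama4 in T3+IFNγ lies below T3 at 8 h and above it at 96 h.

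Itga6, the alpha 6 subunit of the laminin receptor, dipped and came back. It had 5.84, 6.93 and 7.22 in T3 at 8 h, then 5.84, 6.07 and 6.80 at 24 h, then 7.82, 6.79 and 6.46 at 48 h, and lastly 8.33, 8.24 and 8.45 at 96 h, after 7.97, 8.07 and 8.28 in PDGF. The 8 to 48 h arrays were all under the PDGF arrays, with a wide spread between donors, and the 96 h arrays lay close to them. The change was −1.45, −1.87 and −1.08 at 8, 24 and 48 h, each ± 0.37 (adjusted p = 0.0123, 0.000298 and 0.0205), and 0.23 at 96 h, not called. In T3 at 96 h Itga6 was 1.68 ± 0.37 higher than in T3 at 8 h (adjusted p = 0.000566), a comparison in which 21 members passed (27.3%, beside 48.2% of all genes), 11 higher and 10 lower (beside 19.7% and 28.6%). The 24 h fall and the later return held without each donor. The falls at 8 and 48 h were lost without donor 2 (adjusted p = 0.148 and 0.203) or donor 3 (adjusted p = 0.055 and 0.242). A dimmer probe set of Itga6, under the limit in every group, had means of 5.68 in PDGF, 4.53 in T3 at 24 h and 5.86 in T3 at 96 h. The other undetected probe sets showed no dip of that size. They had 4.98 and 4.83 in PDGF, 4.92 and 4.58 in T3 at 24 h, and 5.16 and 4.66 in T3 at 96 h. Itga6 was not called with IFNγ, with changes between −0.07 and 0.53.

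Itgb1, the beta 1 partner of alpha 6 and many other alpha subunits, changed little. It had 10.16, 10.31 and 10.35 in T3 at 96 h, against 10.45, 10.67 and 10.68 in PDGF, with no overlap (change −0.33 ± 0.13, adjusted p = 0.0341). The call was lost without donor 2 (adjusted p = 0.134) or donor 3 (adjusted p = 0.181) and with arrays centred on their medians (adjusted p = 0.0542), and at 8, 24 and 48 h the change was −0.25, −0.06 and 0.04. With IFNγ Itgb1 was not called at a single time, and the changes lay between −0.22 and 0.02.

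Of 7 measured subunits of receptors for the RGD sequence of fibronectin, vitronectin and osteopontin, 3 were detected, and each of these was lower in T3 at 96 h. Over the 7, 4 were called, all lower and including an undetected one (57.1%, beside 29.5% of all genes called lower and 52.9% in either direction). Itgav (alpha v) had 8.93, 9.30 and 9.68 in T3 at 96 h, against 10.33, 10.41 and 10.56 in PDGF, and every T3 array was below every PDGF array (change −1.13 ± 0.26, adjusted p = 0.000702). Its 3 probe sets were all detected and differed by −1.13, −1.15 and −1.32. Itga8 (alpha 8) had 5.97, 6.71 and 6.67 in T3 at 96 h, against 8.11, 8.32 and 8.60 in PDGF (change −1.89 ± 0.31, adjusted p = 1.61e-05). Itgb5 (beta 5) had 7.20, 7.30 and 7.28, against 7.58, 8.29 and 8.24 in PDGF (change −0.78 ± 0.17, adjusted p = 0.000573). These 3 calls at 96 h held without each donor.

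The falls began earlier. At 24 and 48 h Itgav changed by −0.67 and −0.86 (adjusted p = 0.0461 and 0.00934), Itga8 by −0.90 and −1.54 (adjusted p = 0.0263 and 0.000284) and Itgb5 by −0.52 and −0.75 (adjusted p = 0.0218 and 0.00108). With arrays centred on their medians the 24 h call of Itgav was lost (adjusted p = 0.0517). Without donor 2 the 24 h calls were lost (adjusted p = 0.222 for Itgav, 0.157 for Itga8 and 0.256 for Itgb5), and the 48 h calls of Itgav and Itgb5 too (adjusted p = 0.12 and 0.0555). Without donor 3 the 24 h calls were lost as well (adjusted p = 0.1, 0.188 and 0.189), and the fall of Itga8 at 48 h held. With donors as blocks Itgav was also called at 8 h (−0.63, adjusted p = 0.00712). None of the 3 was called with IFNγ at any time. The other RGD-binding subunits Itgb3, Itga5, Itga2b and Itgb6 were not detected, and neither were the collagen receptors Itga1 and Itga11.

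**Figure D4:**
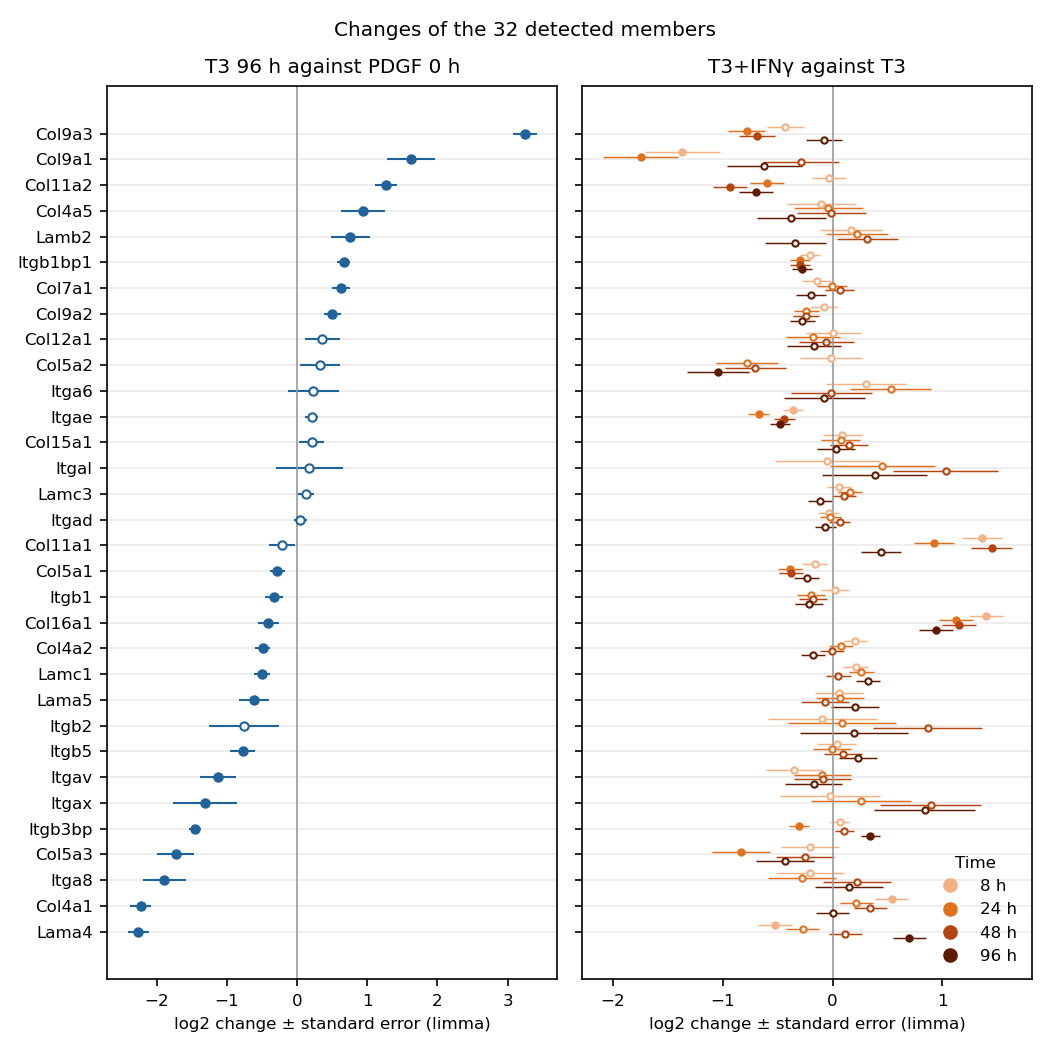
Change of the 32 detected members in T3 at 96 h against PDGF at 0 h (left) and in T3+IFNγ against T3 at 8, 24, 48 and 96 h (right, light to dark), as log2 change with its standard error from limma, with filled points at an adjusted p under 0.05. Col9a3 at 3.25 stands at the top and Lama4 at −2.26 at the bottom of the left panel, while on the right all points of Col16a1 and Col11a1 lie above 0 and all points of Col9a1 below 0.

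Among the leukocyte subunits, Itgb2, Itgax and Itgal spread widely between donors in some groups. Itgb2, the beta 2 subunit, had 6.34, 6.37 and 7.04 in T3 at 48 h, against 7.35, 7.99 and 8.12 in PDGF (change −1.24 ± 0.50, adjusted p = 0.0483). That call was lost without donor 1 (adjusted p = 0.143), donor 2 (adjusted p = 0.221) or the 2 donor 2 arrays of T3+IFNγ (adjusted p = 0.0552). Itgax, the alpha X subunit of dendritic cells and microglia, had 4.86, 4.73 and 4.83 in T3 at 96 h, against 5.65, 6.30 and 6.41 in PDGF, so that the T3 arrays were under the limit (change −1.32 ± 0.46, adjusted p = 0.0186), lost without donor 1 (adjusted p = 0.0539) or donor 2 (adjusted p = 0.0943).

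With IFNγ none of Itgb2, Itgax and Itgal, the alpha L subunit, was called. At 48 h Itgb2 had 7.10, 6.58 and 8.67 in T3+IFNγ and 6.34, 6.37 and 7.04 in T3 (change 0.87), and Itgal had 8.29, 7.74 and 9.56 in T3+IFNγ and 7.61, 7.33 and 7.57 in T3 (change 1.03). Donor 3 was the highest T3+IFNγ array in both. With donors as blocks Itgb2, Itgax and Itgal were called at 48 h (adjusted p = 0.0291, 0.0305 and 0.0136) and Itgax also at 96 h (adjusted p = 0.0475), and the count of members called at 48 h became 16 in place of 10.

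Some markers of microglia were lower at the times when Itgb2 (48 h) and Itgax (96 h) were called lower with T3. In T3 against PDGF 5 of 15 were lower at 48 h (33.3%, beside 25.7% of all genes). At 96 h 12 of 15 were lower (80.0%, beside 29.5%). With IFNγ 2, 5, 7 and 8 of 15 were higher at 8, 24, 48 and 96 h, and none was lower. These are 13.3%, 33.3%, 46.7% and 53.3%, beside 3.69%, 5.96%, 7.57% and 7.91% of all genes. Their summed level was 10.8 to 12.9 in T3+IFNγ at 96 h, 9.23 to 9.61 in T3 at 96 h and 10.3 to 11.5 in PDGF. Aif1 had 8.33, 7.19 and 10.29 in T3+IFNγ at 48 h and 5.60, 4.63 and 7.62 in T3, again with donor 3 highest, and the microglial genes Cx3cr1 and Mrc1 and the alpha M subunit Itgam stayed under the limit. The part of microglia in the result was not tested. In such bulk arrays fewer cells of a type and less RNA per cell cannot be told apart.

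**Figure D5:**
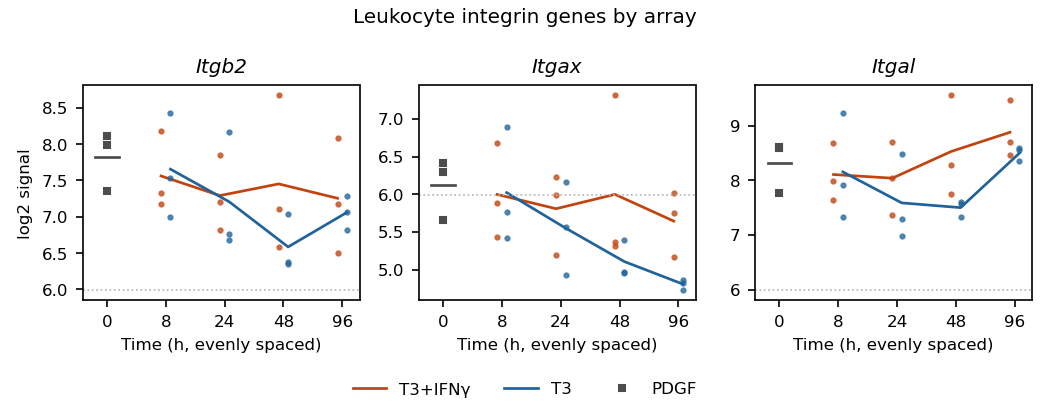
Log2 signal of the leukocyte integrin genes Itgb2, Itgax and Itgal by array at 0, 8, 24, 48 and 96 h in T3+IFNγ (red, left of each pair), T3 (blue) and PDGF (grey squares), with donors as points, means as lines and the detection limit of 5.99 dotted. The donors lie far apart in some groups, such as T3+IFNγ at 48 h, and close together in others, such as Itgax in T3 at 96 h, and the highest T3+IFNγ point at 48 h is donor 3 in each panel.

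Itgae, the alpha E subunit known from T cells of epithelia, where it pairs with beta 7 and binds E-cadherin, was lower with IFNγ at every time. It had 7.98, 8.07 and 8.20 in T3+IFNγ at 24 h, against 8.68, 8.79 and 8.80 in T3, and the groups did not overlap at any time. The fall was 0.36, 0.67, 0.44 and 0.48, each ± 0.09, at 8, 24, 48 and 96 h (adjusted p = 0.0229, 2.08e-05, 0.002 and 0.000981). The 24 h call held without each donor. The 8 and 48 h calls were lost without donor 2 (adjusted p = 0.406 and 0.134) or donor 3 (adjusted p = 0.22 and 0.111), the 8 h call also without the 2 donor 2 arrays (adjusted p = 0.122), and the 96 h call without donor 3 (adjusted p = 0.0661). In T3 at 24 h Itgae was 0.56 above PDGF (adjusted p = 5.32e-05). The partner Itgb7 and the ligand gene Cdh1 were not detected.

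Of the members that share only the letters of the symbol, Itgb3bp encodes a protein of the centromere that was first found through beta 3 integrin. It had 8.60, 8.46 and 8.64 in T3 at 96 h, against 10.10, 9.88 and 10.08 in PDGF, a fall of 1.46 ± 0.09 (adjusted p = 3.79e-12) after falls of 0.98 and 1.06 at 24 and 48 h (adjusted p = 9.52e-09 and 1.77e-09). With IFNγ Itgb3bp fell by 0.31 at 24 h and rose by 0.34 at 96 h (adjusted p = 0.0224 and 0.00862). Each of these 2 calls was lost whichever donor was left out, with adjusted p between 0.086 and 0.224 at 24 h and between 0.0615 and 0.114 at 96 h, and that at 24 h without the 2 donor 2 arrays (adjusted p = 0.0613).

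Itgb1bp1, a protein that binds the tail of beta 1 integrin and restrains its activation, rose with T3 to 10.45, 10.22 and 10.30 at 96 h, against 9.73, 9.54 and 9.70 in PDGF (change 0.67 ± 0.09, adjusted p = 1.4e-06). It fell slightly with IFNγ, by 0.29, 0.30 and 0.28 at 24, 48 and 96 h (adjusted p = 0.0354, 0.028 and 0.0417). The single-time calls of Itgb1bp1 with IFNγ were lost without donor 1 (adjusted p = 0.127, 0.0922 and 0.303) or donor 3 (adjusted p = 0.143, 0.178 and 0.257), at 24 and 48 h without donor 2 (adjusted p = 0.277 and 0.151), at 24 h without its 2 arrays (adjusted p = 0.165), and with probe sets averaged (adjusted p = 0.514, 0.341 and 0.402). The average of −0.27 over the 4 times held without each donor (adjusted p = 7.42e-05).

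The 45 undetected members hold the chains of the most abundant collagens of connective tissue. Col1a1, Col1a2 and Col3a1 had highest group means of 5.43, 4.20 and 4.27. All 4 transmembrane collagens (Col13a1, Col17a1, Col23a1 and Col25a1) and 9 of the 10 collagens of types VI, VII, VIII, X and XXVI (all but Col7a1) were under the limit too. Col6a3 had group means of 5.52 in T3+IFNγ and 4.67 in T3 at 48 h, both under the limit. Members without a probe set of their own, such as Itga4 and Itgb8, were not analysed here.

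Genes that act with these members were read from 6 lists, whose counts stand beside 23.4% of all genes higher and 29.5% lower in T3 at 96 h (52.9% in all) and 7.91% higher and 5.63% lower with IFNγ at 96 h (13.5% in all). Of 23 enzymes and chaperones of collagen synthesis, 9 were higher and 2 lower in T3 at 96 h (47.8% in all, median change 0.21, beside 0.01 over all genes), among them Fkbp14, a chaperone of procollagen, at 4.20 and Sec24d, a coat protein for its export, at 1.23, and the lysyl hydroxylase Plod2 at −1.32 (adjusted p = 1.73e-13, 0.000701 and 0.000261). With IFNγ at 96 h 1 was higher and 2 lower (13.0%). At 48 h 2 were higher and 5 lower (30.4%, beside 16.1% of all genes, 7.57% higher and 8.53% lower). Pcolce, the enhancer of procollagen cleavage, rose by 4.71 ± 0.32 (adjusted p = 1.04e-10) at 96 h. Loxl1, which crosslinks the matrix, fell by 0.61 (adjusted p = 0.000449), with a mean at the limit in T3 and under it in T3+IFNγ. At 96 h P3h4 fell by 0.58 (adjusted p = 0.0257), which was lost without donor 2 (adjusted p = 0.0656) or donor 3 (adjusted p = 0.262).

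Of 10 other proteins of the basement membrane, 2 were higher (Nid2 at 2.66 and Sparc at 1.14) and 3 lower in T3 at 96 h, among them Smoc1 at −2.23 and agrin (Agrn) at −1.87 (adjusted p = 3.9e-12 and 1.18e-07), so that 5 of 10 were called. With IFNγ at 96 h 2 were higher (20.0%), Smoc1 by 1.28 and Agrn by 0.83 (adjusted p = 2.03e-07 and 0.0102), the Agrn call being lost without donor 2 (adjusted p = 0.0789) or donor 3 (adjusted p = 0.107). Of 23 other integrin ligands, 5 were higher and 10 lower in T3 at 96 h (65.2%). Tenascin R (Tnr), a matrix protein of oligodendrocytes, rose by 4.05, and fibrillin 2 (Fbn2) and osteopontin (Spp1) fell by 4.28 and 3.47 (adjusted p = 1.39e-09, 1.4e-08 and 0.00048), with Tnr under the limit in PDGF and Fbn2 in T3. With IFNγ at 96 h 2 ligands were higher, the leukocyte adhesion molecules Icam1 by 1.51 and Vcam1 by 0.82 (adjusted p = 4.86e-05 and 0.00255), and 3 were lower, which makes 21.7%, among them Edil3 by 1.03 (adjusted p = 0.00226), lost without donor 2 (adjusted p = 0.0788).

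Of 16 other receptors for collagen and laminin, 4 were higher and 7 lower in T3 at 96 h (68.8%). The collagen receptor Ddr1 rose by 1.48 and the syndecan Sdc1 fell by 3.51, to a mean under the limit (adjusted p = 1.51e-06 and 4.49e-07). With IFNγ at 96 h 2 of the 16 were called (12.5%), the collagen receptors Ddr2 and Ddr1. Ddr2 rose by 1.54 (adjusted p = 0.000194) and Ddr1 fell by 0.76 (adjusted p = 0.0124), the Ddr1 call being lost without donor 2 (adjusted p = 0.0828) or donor 3 (adjusted p = 0.129). Of 32 adaptors and signalling proteins of integrins, 9 were higher and 12 lower in T3 at 96 h (65.6%), with the tensins Tns1 and Tns3 at 2.10 and 1.89 and the kinase Src at −2.31 (adjusted p = 1.4e-08, 1.02e-09 and 2.37e-06). With IFNγ 6 were called at 48 h, all lower (18.8%, beside 8.53% of all genes lower and 16.1% in either direction). On the mean of the 4 times 1 was higher and 8 lower (28.1%, beside 31.2% of all genes, 12.7% higher and 18.5% lower). At 96 h 2 were called (6.25%), Rap1a at −0.60 and Ptk2 (focal adhesion kinase) at −0.41 (adjusted p = 2.11e-05 and 0.0103), and Ptk2 was lost without donor 1 (adjusted p = 0.0563), donor 2 (adjusted p = 0.0768) or donor 3 (adjusted p = 0.111).

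Of 31 matrix proteases and inhibitors, 5 were higher and 8 lower in T3 at 96 h (41.9%). Adamts4, a protease of proteoglycans, rose by 5.49 (adjusted p = 1.57e-12), and the membrane-bound Mmp15 and Mmp16 fell (changes −2.59 and −2.40, adjusted p = 3.89e-05 and 3.74e-07). With IFNγ at 96 h only the inhibitor Timp1 was called (3.23%), at 0.95 (adjusted p = 0.0345), and not without donor 2 (adjusted p = 0.102) or donor 3 (adjusted p = 0.158).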

How the data were processed

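Total RNA of 27 cultures was hybridised to Affymetrix rat arrays. The authors computed the deposited log2 values with RMA (background correction, quantile normalization and summary per probe set), and the submitters' processing notes name RMA and limma without versions, so the background correction could not be varied here. The brightest probe set with 1 gene symbol stood for each of the 14218 genes. The platform annotation names 1 symbol for 20832 of 31099 probe sets, several for 436 and none for 9831. All 77 members matched RefSeq (GRCr8) by Entrez identifier.

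Groups and donors came from the labels. The linear model was fitted in limma 3.58.1 under R 4.3.3 to the 27 arrays together, with a mean for every group and eBayes, and p-values were adjusted by Benjamini-Hochberg over all genes within each comparison. Tables and plots were made in Python 3.11.15 (pandas 2.3.3; NumPy 2.4.6; matplotlib 3.10.9), and the fit was tested on simulated data. Named genes were up to 10 called detected members in each direction in T3 at 96 h, up to 5 in each direction with IFNγ at each time, those with a changed IFNγ effect, the brightest and most changed of each role, textbook subunits and chains, up to 2 called genes in each direction per list, and defining markers. Other genes named, such as Itgb2, Itgal, Itgam, Mgp, Cx3cr1, Cdh1 and Col6a3, were chosen after their values were seen. The members, lists and tests were chosen with earlier results of these data known. Donors pair the arrays by the labels. Deviations from group means had a median r of 0.31 within donors and −0.171 between donors, with a highest correlation between arrays of 0.9973. Alternatives were median centring, a filter on low values, averaged probe sets, donor blocks and omitted donors or arrays. Promoter windows came from RefSeq.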

Additional observations from a re-analysis of the deposited data

Results flagged for a closer look

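The effect of IFNγ on 2 members differed between 96 h and 8 h by the test of the difference itself (limma). Lama4 differed by 1.22, and Col11a1 by −0.92. The Lama4 call was lost without donor 3, the Col11a1 call without donor 2 or donor 3, and both with probe sets averaged. For 4 further members all 3 donors moved one way at one time and the opposite way at another, and these differences between times were not tested. They were picked by searching the members over the 4 times. The share of all genes with such a pattern is not given here, so the count of 4 is not read as a result about the members. Col4a2 changed by 0.073 with IFNγ at 24 h and by −0.18 at 96 h. Itga8 changed by 0.22 at 48 h and by −0.27 at 24 h. Itgb3bp changed by 0.34 at 96 h and by −0.31 at 24 h. Lamb2 changed by 0.32 at 48 h and by −0.34 at 96 h. Groups of 3 arrays are too small for a search for outlying samples.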

How the results depend on the processing

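No result of a member reversed under any alternative. Of 122 calls of single detected members, 122 kept their call with a filter on low values, 122 with donors as a replicate block, 119 with median centring, 112 with probe sets averaged, 113 without the donor 2 arrays of T3+IFNγ at 8 and 24 h, and 100, 73 and 80 without donor 1, 2 and 3. Counts of members called moved by more than 1.5 times in these cases. With the filter on low values the T3 count at 8 h was 5 in place of 8 and that of the mean IFNγ effect 13 in place of 21, since undetected members left the test. Without the 2 donor 2 arrays the IFNγ counts were 3 in place of 7 at 8 h, 7 in place of 13 at 24 h, and 1 in place of 2 for the difference between 96 and 8 h. With the replicate block the IFNγ count at 48 h was 16 in place of 10 and that for the difference 5 in place of 2. The block took away no call of a detected member and added others. Among these were the mean IFNγ effects of Itgb1, Itgal and Itgax (−0.14, 0.45 and 0.49, limma adjusted p = 0.0209, 0.0174 and 0.0105). Itgb2 was also called in T3 at 96 h (−0.76, adjusted p = 0.0241). With probe sets averaged the count for the difference was 0. With median centring the IFNγ calls at 24 h were 3 higher and 8 lower, in place of 5 and 8.

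With 1 donor left out, the counts ran from 1 to 6 for T3 at 8 h, 14 to 23 at 24 h, 14 to 21 at 48 h and 22 to 27 at 96 h, and from 15 to 26 for T3 at 96 h against 8 h. With IFNγ they ran from 2 to 5 at 8 h, 2 to 11 at 24 h, 5 to 7 at 48 h, 4 to 9 at 96 h, 12 to 17 for the mean and 0 to 3 for the difference. These fits rest on 18 arrays. Signals near the detection limit understate changes, so falls to it are limited by background.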
